A study of Mus musculus with 2 samples.

Results

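Collagens VI, VIII, XII and XIV are matrix proteins that do not form the main fibrils themselves, and 7 genes of their chains were followed here: Col6a1, Col6a2, Col6a3, Col6a5, Col8a1, Col12a1 and Col14a1. The members were chosen by gene symbol, and each symbol was found in 1 row of the 32285 genes of the count tables. Cells came from vein grafts of C57BL6/J mice that were 10 to 12 weeks old. One library held CD45-negative cells of conventional vein grafts and the other CD45-negative cells of No-Touch vein grafts, a harvest that leaves tissue around the vein in place. No genotype or drug is named for either group, and neither label states how many animals gave the grafts. Papain, followed by papain with collagenase I and dispase II, freed the cells, all cells of a sample were pooled, and live nucleated cells were sorted for single-cell 3' RNA sequencing with unique molecular identifiers (UMIs). With 1 library per graft type there is no replicate, no test was possible, and every interval below is an exact 95% interval that covers counting error only.

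Collagen VI is assembled inside the cell from an alpha1, an alpha2 and an alpha3 chain, the products of Col6a1, Col6a2 and Col6a3, and is secreted as beaded microfilaments that lie around cells and link them to the matrix. The chain made by Col6a5 can take the place of alpha3. Col8a1 encodes a chain of the short network-forming collagen VIII, known from vessel walls and from the basement membrane of the cornea. Col12a1 and Col14a1 encode collagens that sit on the surface of collagen I fibrils and tie them to other matrix proteins. Fibroblasts, pericytes and smooth muscle cells are known sources of these chains in vessel walls.

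All coordinates are on GRCm38. Col6a1 (chr10:76708792-76726168) and Col6a2 (chr10:76595762-76623630) lie on the minus strand of the same chromosome, 85161 bases apart with 1 noncoding gene between them. Col6a3 (chr1:90765923-90843971), Col6a5 (chr9:105856078-105960643), Col8a1 (chr16:57624258-57754737) and Col12a1 (chr9:79598991-79718831) also lie on the minus strand, and Col14a1 (chr15:55307750-55520803) lies on the plus strand. The antisense gene 1700040F17Rik touches an exon of Col14a1, so Col14a1 counts are uncertain where strand was not used in counting, and the sources used here do not say. RefSeq promoters (GRCm38.p6) were at hand for 5 of the 7 members. The 250 bases before the start site are printed below for those 5, because the 3 chains that join in 1 molecule kept nearly the same order of levels over cell classes while Col6a5 and Col8a1 did not. Capitals mark a TATA box (TATAAA), an AP-1 site (TGANTCA) or a GC box (GGGCGG), read on both strands:
Col6a1, chr10:76726045-76726294, minus strand: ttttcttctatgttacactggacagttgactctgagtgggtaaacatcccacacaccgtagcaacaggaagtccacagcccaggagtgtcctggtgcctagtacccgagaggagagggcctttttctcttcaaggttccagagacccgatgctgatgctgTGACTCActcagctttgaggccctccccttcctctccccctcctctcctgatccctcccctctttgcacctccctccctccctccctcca
Col6a2, chr10:76623631-76623880, minus strand: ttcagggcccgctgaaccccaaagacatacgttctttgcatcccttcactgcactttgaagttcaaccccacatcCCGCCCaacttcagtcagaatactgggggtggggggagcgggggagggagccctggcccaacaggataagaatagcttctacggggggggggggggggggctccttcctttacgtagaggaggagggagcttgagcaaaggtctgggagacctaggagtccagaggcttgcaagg
Col6a3, chr1:90843972-90844221, minus strand: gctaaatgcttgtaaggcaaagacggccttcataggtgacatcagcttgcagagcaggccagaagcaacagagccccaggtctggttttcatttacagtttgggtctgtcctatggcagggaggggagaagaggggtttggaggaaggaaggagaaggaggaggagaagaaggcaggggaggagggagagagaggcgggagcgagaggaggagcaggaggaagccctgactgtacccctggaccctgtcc
Col6a5, chr9:105960644-105960893, minus strand: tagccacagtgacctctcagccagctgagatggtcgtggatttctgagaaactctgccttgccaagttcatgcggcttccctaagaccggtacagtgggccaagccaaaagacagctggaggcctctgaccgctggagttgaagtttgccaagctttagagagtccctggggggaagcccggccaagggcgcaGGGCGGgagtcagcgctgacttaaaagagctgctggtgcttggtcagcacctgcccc
Col8a1, chr16:57754738-57754987, minus strand: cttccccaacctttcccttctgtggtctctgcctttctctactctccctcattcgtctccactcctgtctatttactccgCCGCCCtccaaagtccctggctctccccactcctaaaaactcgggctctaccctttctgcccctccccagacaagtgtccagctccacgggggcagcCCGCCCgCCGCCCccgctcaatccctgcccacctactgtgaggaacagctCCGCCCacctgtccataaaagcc
The Col6a1 window held 1 AP-1 site and no GC box, and 124 of its bases lie inside the gene as GENCODE draws it. The printed Col6a2 window, which ends at the GENCODE start of the gene, held 1 GC box, and the window of the other RefSeq start (chr10:76623405-76623654) held 3. The Col6a3 window held none of these 3 motifs, the Col6a5 window held 1 GC box and the Col8a1 window held 4. Of 27025 promoter windows of the same length, 13.0% held a TATA box, 6.87% an AP-1 site and 32.9% a GC box. None of the 5 printed windows held a TATA box or a CCAAT box (CCAAT), which 34.5% of windows hold. An E-box (CANNTG), found in 66.0% of windows, occurred in those of Col6a1 (1), Col6a5 (3) and Col8a1 (2), and a SMAD element (CAGAC), found in 42.1%, in those of Col6a2 (1), Col6a3 (2) and Col8a1 (1).

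After filtering, 10458 of 11899 barcodes of the conventional library and 11525 of 12450 of the No-Touch library were kept, with medians of 16778.5 and 28472 UMIs per cell. The libraries shared 18 barcodes. Cells were put into classes by marker genes, none of them a collagen, and levels are UMIs per 1000000 UMIs of a class (CPM). Fibroblast-like cells, the class of Pdgfra, Dcn, Lum, Dpt, Clec3b, Mfap5 and Pi16, numbered 6339 in the conventional library and 8781 in the No-Touch library, and 11 classes had at least 50 cells in at least 1 library. The sort removed cells with CD45 protein, and 377 and 75 neutrophil-like cells remained. These cells served as the reference for free RNA, since neutrophils are not a known source of these collagens. Their medians of 2630 and 4425 UMIs lay below the 12674 and 20231 of blood endothelial-like cells. Free RNA can be a larger part of the UMIs of such shallow cells, so this reference may overstate it in deeper classes. The free RNA level itself was not measured.

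Of the UMIs of each member, 73.0% to 94.2% in the conventional library and 86.9% to 96.6% in the No-Touch library were in fibroblast-like cells. Over all genes these cells held 145037528 of 197303425 kept UMIs and 320631788 of 371908809. The low ends of the ranges were near that share. Conventional Col12a1 stood at 79.6 CPM in fibroblast-like cells and 80.1 CPM over all kept cells. No-Touch Col8a1 stood at 215.1 and 213.5 CPM. Col6a1 stood at 519.9 CPM in fibroblast-like cells of the conventional library and at 902.5 CPM in those of the No-Touch library. In pericyte-like cells, the cells that wrap small vessels, its levels were 656 and 828 CPM. The ranges of these classes over the 2 libraries overlapped. Smooth muscle-like cells followed at 464 and 347 CPM. Schwann-like cells, the glia of nerves, stood at 204 and 336 CPM, with no overlap between the ranges of these neighbours. In the No-Touch library the counting intervals of smooth muscle-like (333 to 362 CPM) and Schwann-like cells (314 to 360 CPM) did overlap. Blood endothelial-like cells had 46.1 and 66.3 CPM and lymphatic endothelial-like cells 57.5 and 98.3 CPM, at or below the 78.1 and 131 CPM of neutrophil-like cells. In CPM, Col6a1 in endothelial cells was thus not above the level of neutrophil-like cells. Per cell the order was the other way in blood endothelial-like cells, with 564 UMIs in 846 cells and 536 in 385. Neutrophil-like cells had 82 UMIs in 377 cells and 46 in 75. The part of free RNA in these UMIs was not tested.

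Col6a2 and Col6a3 followed nearly the same order of classes. Col6a2 levels were 441.5 and 691.5 CPM in fibroblast-like cells, 563 and 615 CPM in pericyte-like cells, and 427 and 275 CPM in smooth muscle-like cells. Col6a3, whose chain gives the microfilament its long globular ends, stood at 290.3 and 556.0 CPM in fibroblast-like cells, 489 and 758 CPM in pericyte-like cells, and 380 and 250 CPM in smooth muscle-like cells. Fibroblast-like and pericyte-like ranges overlapped for both genes, and for Col6a3 the smooth muscle-like range overlapped the fibroblast-like range too. In all of these pairs the No-Touch value was the higher one in fibroblast-like and pericyte-like cells and the lower one in smooth muscle-like cells. Of the smooth muscle-like cells, 46.8% and 12.5% were in clusters led by markers of another class, mostly pericyte cluster 5. Over all cells of clusters 12 and 21, which smooth muscle markers lead, Col6a1 and Col6a2 were higher in the No-Touch library. In the gated cells of both clusters Col6a1, Col6a2 and Col6a3 were lower. The part of cluster 5 was not tested. Endothelial levels of both genes were at or below those of neutrophil-like cells.

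Col6a5 was mostly a fibroblast transcript of the conventional library. It stood at 74.7 CPM (73.3 to 76.1) in fibroblast-like cells of the conventional library and at 16.3 CPM (15.8 to 16.7) in those of the No-Touch library. The conventional level was 11.2 times that of neutrophil-like cells (5.43 to 27.9), whereas the No-Touch level was 1.43 times theirs (0.560 to 5.26), a reference that rests on 4 UMIs in 75 cells. Against other classes of the No-Touch library, the fibroblast level lay above the 1.36 CPM of blood endothelial-like cells (0.679 to 2.43), the 1.86 CPM of lymphatic endothelial-like cells (0.750 to 3.84) and the 2.54 CPM of pericyte-like cells (1.22 to 4.66). The highest class level was 119 CPM, in 50 cells of the conventional library gated as perineurial-like by markers of nerve sheath cells. Of these, 48 lay in cluster 15, which is counted among the fibroblast clusters below. Their fibroblast markers summed to 11300 CPM and their perineurial markers to 2682 CPM, so the level cannot be credited to nerve sheath cells alone. In smooth muscle-like cells Col6a5 stood at 16.5 and 5.57 CPM, and in pericyte-like, blood endothelial-like and Schwann-like cells it stayed under 6 CPM in both libraries.

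Col8a1 had another order. Its levels were 219 and 285 CPM in Schwann-like cells and 204 and 215 CPM in fibroblast-like cells, with no overlap of these ranges. The counting interval of conventional Schwann-like cells, 192 to 248 CPM, covered both fibroblast-like levels. In smooth muscle-like cells it stood at 304 CPM in the conventional library and 98.8 CPM in the No-Touch library. In blood endothelial-like cells the 2 libraries were the other way round, at 51.0 and 309 CPM. Pericyte-like cells had 72.7 and 70.5 CPM. The highest class level of this gene, 671 CPM, was in perineurial-like cells of the conventional library, which lay mostly in fibroblast cluster 15. The smooth muscle-like and blood endothelial-like ranges each overlapped the fibroblast-like range, while the pericyte-like range lay below those of fibroblast-like and smooth muscle-like cells and inside that of blood endothelial-like cells. In the No-Touch library 124 T or NK-like cells carried 70.4 CPM of Col8a1, against 11.4 CPM (3.09 to 29.1) in neutrophil-like cells, which rests on 4 UMIs. The fibroblast markers summed to 2138 CPM in these T or NK-like cells and to 1672 CPM in the neutrophil-like cells. The part of fibroblast RNA in this Col8a1 level was not tested.

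Col12a1 stood at 79.6 and 114 CPM in fibroblast-like cells, 78.9 and 114 CPM in Schwann-like cells, 80.3 and 110 CPM in pericyte-like cells and 124 and 43.6 CPM in smooth muscle-like cells. These 4 ranges overlapped. Endothelial levels of Col12a1 were between 8.67 and 16.2 CPM. Col14a1 was highest in fibroblast-like cells, at 731 and 1107 CPM, and stood at 272 and 229 CPM in smooth muscle-like cells, and 87.1 and 103 CPM in Schwann-like cells. Pericyte-like cells, whose Col6a1, Col6a2 and Col6a3 ranges overlapped those of fibroblast-like cells, held Col14a1 at 46.2 and 82.7 CPM. These Col14a1 levels were at or below the 63.8 and 108 CPM of neutrophil-like cells.

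**Figure D1:**
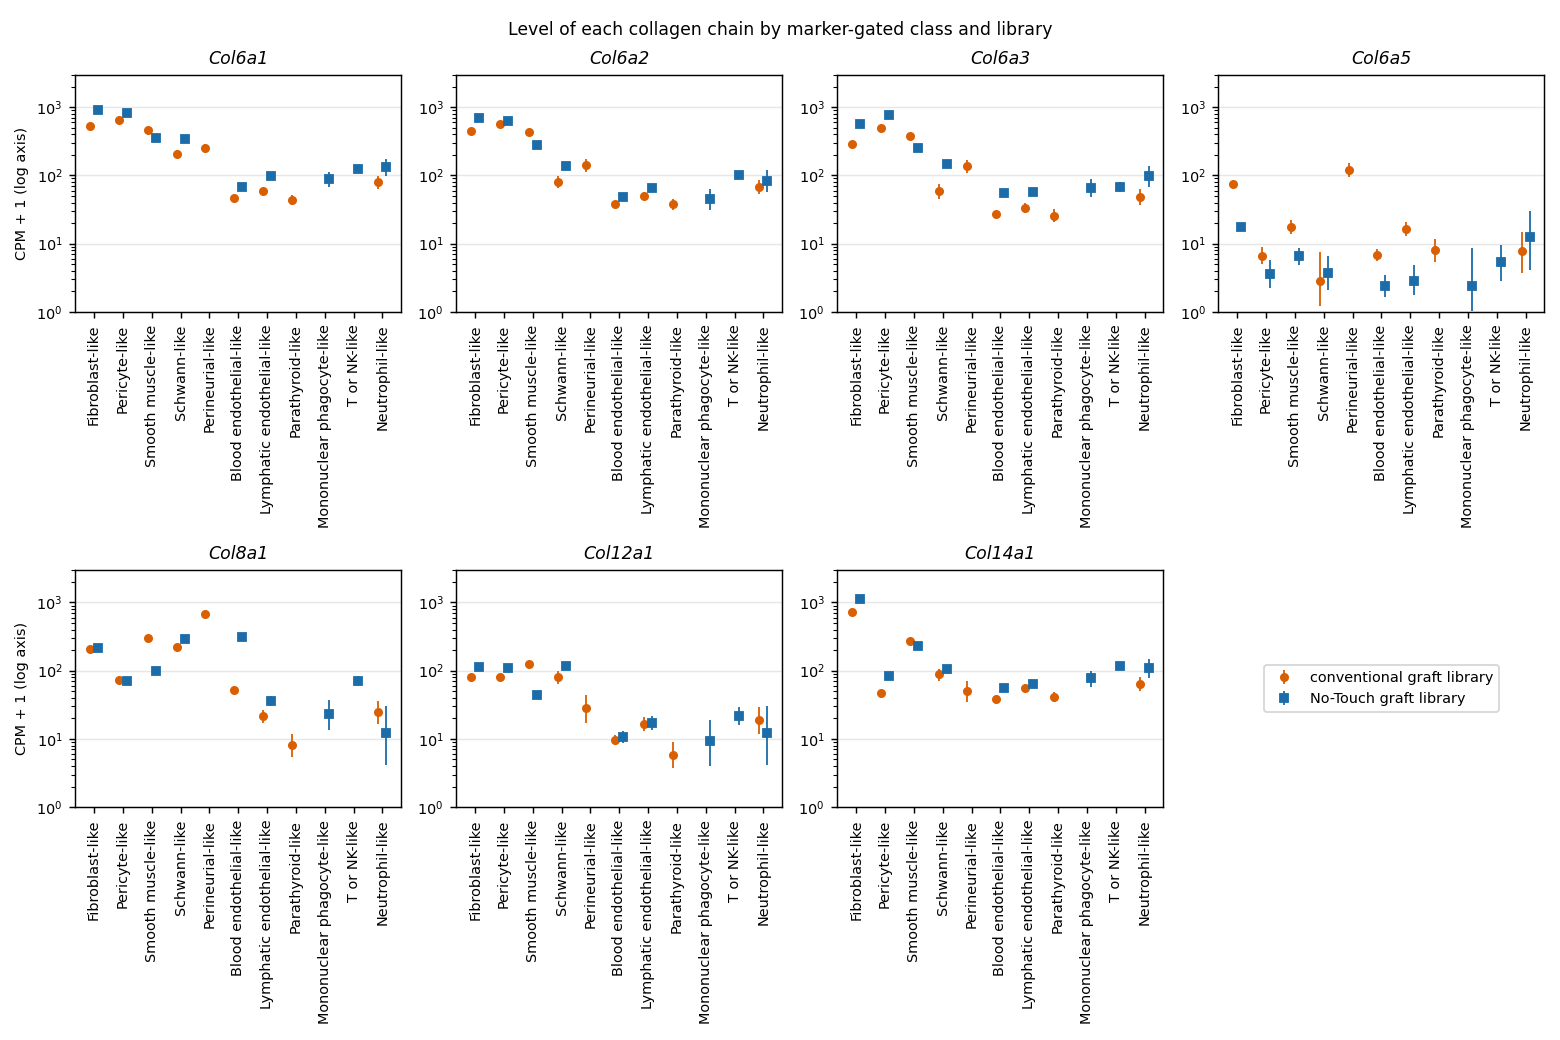
Level of each chain by marker-gated class, as CPM + 1 on a log axis, with exact 95% counting intervals; circles are the conventional library, squares the No-Touch library, and a class with under 50 cells in a library has no symbol there. Col6a1 and Col6a2 are highest in fibroblast-like and pericyte-like cells, Col6a3 in the conventional library is higher in smooth muscle-like (380 CPM) than in fibroblast-like cells (290.3 CPM), Col14a1 is highest in fibroblast-like cells, and Col8a1 in blood endothelial-like cells is at 51.0 CPM in the conventional and 309 CPM in the No-Touch library.

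The share of cells with a UMI was compared after thinning each cell to 3000 UMIs, which left out 62 and 140 fibroblast-like cells. Col14a1 was detected in 77.6% of fibroblast-like cells of the conventional library (76.6% to 78.7%) and 88.9% of those of the No-Touch library (88.2% to 89.5%). Unthinned, these shares were 96.9% and 98.3%. Col6a1 was detected in 68.6% and 83.1% of thinned fibroblast-like cells and in 77.2% and 79.7% of thinned pericyte-like cells. Neutrophil-like cells thinned the same way, 127 and 71 cells, had Col14a1 in 11.0% and 33.8% and Col6a1 in 23.6% and 33.8%. Col6a5 was found in 12.2% and 4.04% of thinned fibroblast-like cells (30.5% and 17.8% unthinned) against 3.15% and 5.63% of neutrophil-like cells, 4 cells in each library. In the No-Touch library the share was 0.783% in thinned blood endothelial-like cells (0.162% to 2.27%) and 0.707% in lymphatic endothelial-like cells (0.0857% to 2.53%), both below the fibroblast share (3.63% to 4.48%). Col8a1 was detected in 6.43% and 18.3% of thinned blood endothelial-like cells against 3.94% and 1.41% of neutrophil-like cells.

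Clusters made without collagen genes showed how the members vary among fibroblasts. The 12 fibroblast clusters with at least 50 cells in the conventional library and the 9 in the No-Touch library are given by number and leading genes, and the clustering used these cells, so levels across clusters are a description. Col6a1, Col6a2 and Col6a3 were highest in cluster 4, led by Crabp2 and Anxa8, in both libraries. There Col6a1 stood at 1332 and 1472 CPM, Col6a2 at 1254 and 1170 CPM, and Col6a3 at 1040 and 1050 CPM. The lowest Col6a1 levels, 361 and 459 CPM, were in cluster 6, led by Pla1a and Pcsk6. In cluster 20 of the conventional library, led by Wt1 and Nkain4, Col6a3 stood at 64.2 CPM while Col6a1 was at 548 and Col6a2 at 473 CPM. Cluster 20 also held the highest Col6a5 level, 134 CPM. Clusters 6 and 20 have the mesothelial marker Wt1 among their leading genes and are set aside from the fibroblast ratio below. Their levels thus cannot be credited to fibroblasts alone.

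Col8a1 and Col12a1 were both highest in cluster 3, led by C1qtnf3 and Thbs4, at 747 and 619 CPM for Col8a1 and 270 and 314 CPM for Col12a1. Cluster 16 of the conventional library, led by Il1rl1 and Barx2, held 32.9% of the Col8a1 UMIs of that library's fibroblast clusters in 6.41% of their cells. Its Col8a1 level was 587 CPM. Col14a1 was highest in cluster 0, led by Efhd1, Sema3c and Pcsk6, at 1313 and 1387 CPM, and lowest in cluster 15, led by Tenm2 and Myoc, at 148 and 367 CPM. Col8a1 in cluster 0 was at 73.2 and 97.0 CPM, so the clusters highest in Col14a1 and Col8a1 were different ones. Conventional Col6a5 UMIs lay mostly in cluster 2 (43.4%), cluster 9 (23.5%) and cluster 6 (19.7%), which held 32.3%, 16.6% and 20.3% of those cells. The No-Touch library had 85, 24 and 51 cells of these 3 clusters.

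**Figure D2:**
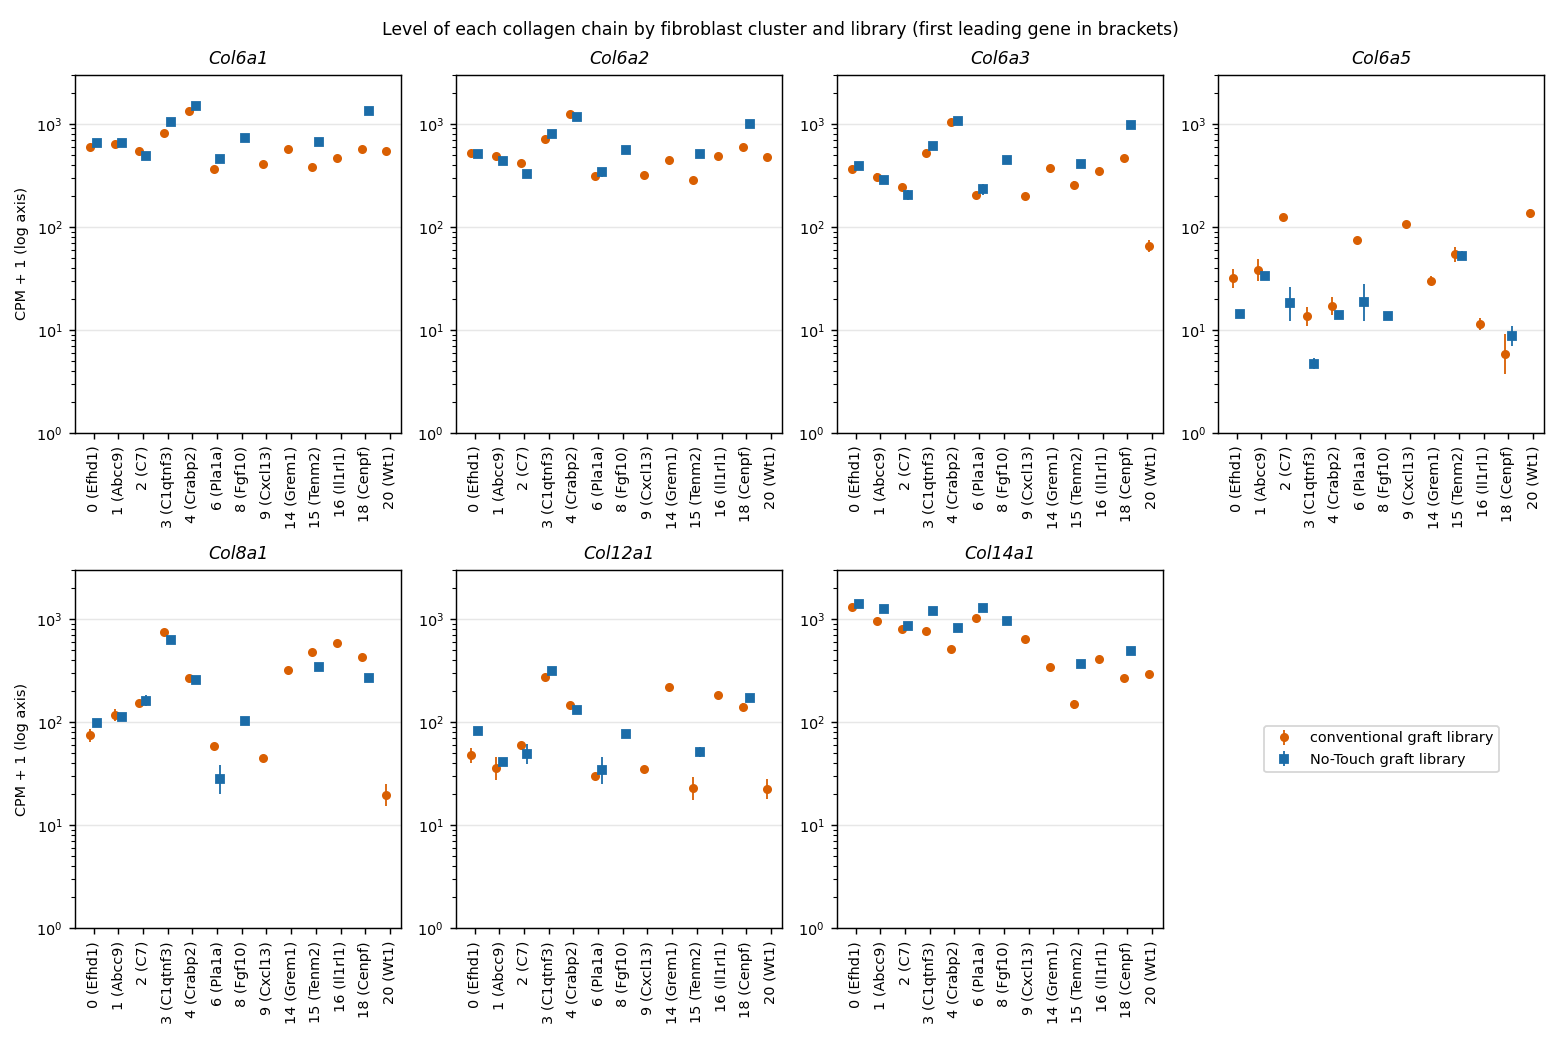
Level of each chain by fibroblast cluster and library, as CPM + 1 on a log axis with exact 95% counting intervals; the first leading gene of each cluster is in brackets, and clusters with under 50 cells in a library have no symbol there. Col6a1, Col6a2 and Col6a3 peak in cluster 4, Col8a1 and Col12a1 in cluster 3 and Col14a1 in cluster 0, and Col6a5 in cluster 2 is at 122 CPM in the conventional and 17.1 CPM in the No-Touch library.

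The study compares No-Touch with conventional grafts. The ratio was taken in 6 populations. These were fibroblast-like, pericyte-like, blood endothelial-like and lymphatic endothelial-like cells, and clusters 12 and 21, which smooth muscle markers lead. The 2 clusters were used in place of the smooth muscle-like class. No gated class made up 50% of the cells of cluster 12. Smooth muscle-like cells were 89 of its 251 conventional and 205 of its 366 No-Touch cells, so its make-up differed between the libraries. A gene was counted as higher or lower when its CPM differed by at least 1.5 times and reached 50 CPM in either library. Fibroblast clusters 1, 6, 9, 15 and 20 have a pericyte, mesothelial or perineurial marker among their leading genes and were set aside from the fibroblast ratio, which removed 44.7% of the conventional and 30.2% of the No-Touch cells. The 3507 and 6127 cells left were mostly in clusters 2, 14 and 16 in the conventional library and in clusters 0, 3, 4 and 8 in the No-Touch library, so graft type and cluster cannot be told apart in that ratio. In these bulk sums per class, a change in the mix of cells and a change within cells cannot be told apart either.

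In the fibroblast-like cells so defined, Col6a1 stood at 607 CPM in the conventional and 978 CPM in the No-Touch library, 1.61 times higher (1.60 to 1.63). Col6a3 stood at 351 and 631 CPM, 1.80 times higher (1.78 to 1.82), and Col14a1 at 668 and 1095 CPM, 1.64 times higher (1.62 to 1.66). Col6a5 went the other way, from 66.4 to 11.5 CPM, 5.77-fold lower (5.51 to 6.03). Col6a2, at 523 and 764 CPM, was 1.46 times higher, Col8a1, at 303 and 239 CPM, was 1.27 times lower, and Col12a1, at 115 and 134 CPM, was 1.17 times higher. Thus 3 of 7 members were higher, where 9.87% of all 3142 genes were, and 1 of 7 was lower, where 6.4% of all genes were. The median log2 ratio was 0.55 over the members and 0.05 over all genes. The clusters were set aside after the data were seen, and with all clusters of the class kept Col6a2 was also counted as higher (log2 ratio 0.65), while Col8a1, at 204 and 215 CPM, turned to 0.076.

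The picture changed when clusters present in both libraries were weighed equally. Over clusters 0, 2, 3 and 4, the 4 with at least 50 gated cells in each library, the mean log2 ratio was 0.10 for Col6a1, -0.10 for Col6a2 and -0.0027 for Col6a3, and none of the 7 members was higher by 1.5 times. Col14a1 had 0.34, Col6a5 -1.47 and Col8a1 0.11. With all cells of these clusters and of cluster 18, where 31 conventional cells were gated, the means were 0.34 for Col6a1, 0.084 for Col6a2, 0.24 for Col6a3, 0.47 for Col14a1, -1.03 for Col6a5 and -0.12 for Col8a1, and again no member was higher by 1.5 times. The Col6a1, Col6a2 and Col6a3 ratios of the class sum were thus larger than both equal-weight means. Col6a5 was lower in the class sum and in both means, and the direction of Col8a1 depended on the cells used.

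Within single clusters the members were compared in the 8 fibroblast clusters that had at least 50 cells in both libraries. Col14a1 was above 0 in 8 of 8, with a median log2 ratio of 0.52, and Col6a5 was below 0 in 7 of 8, with a median of -0.72. These counts have no 50 CPM limit. Col6a5 was under 50 CPM in both libraries in clusters 0, 1, 3, 4 and 18. Its counting interval included a ratio of 1 in clusters 1, 4, 15 and 18. Col6a1 was above 0 in 7 of 8 with a median of 0.25, Col6a2 in 4 of 8 with a median of 0.04, Col6a3 in 6 of 8 with 0.14, Col12a1 in 6 of 8 with 0.22, and Col8a1 in 2 of 8 with -0.17. In cluster 2 Col6a5 stood at 122 and 17.1 CPM, the 1 member that was lower there, where 5.43% of all genes were lower and 7.77% higher. In cluster 6 Col6a5 (73.2 and 17.8 CPM) and Col8a1 (57.5 and 27.1 CPM) were lower, where 5.44% of genes were lower and 6.35% higher. In clusters 3 and 4 Col14a1 was the 1 member counted as higher, at 764 and 1182 CPM and at 516 and 815 CPM, where 7.72% and 6.02% of genes were higher and 3.91% and 3.72% lower.

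Collagen VI differed within a cluster in clusters 15 and 18. In cluster 18, led by the division genes Cenpf and Mki67, Col6a1 stood at 574 CPM in 73 conventional cells and 1316 CPM in 142 No-Touch cells, Col6a2 at 593 and 1002 CPM, and Col6a3 at 461 and 980 CPM. With Col14a1 these made 4 members higher, where 11.0% of genes were, and Col8a1, at 431 and 265 CPM, was lower, where 6.92% of genes were. The summed fibroblast panel of 7 markers moved with them, at 5892 and 8360 CPM, and the 6 smooth muscle markers stood at 1733 and 910 CPM. In cluster 15 Col6a1 (377 and 667 CPM), Col6a2, Col6a3, Col12a1 and Col14a1 were higher, 5 members where 9.53% of genes were, and none was lower, where 8.37% were. There the 5 perineurial markers stood at 909 and 385 CPM and the fibroblast panel at 17969 and 20740 CPM, with no marker at 0. The part of these markers in the results was not tested. In cluster 0 only Col12a1 (46.8 and 80.3 CPM) was counted, as higher, where 6.6% of genes were and 4.94% were lower, and in cluster 1 no member passed in either direction, where 6.72% of genes were higher and 5.64% lower.

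**Figure D3:**
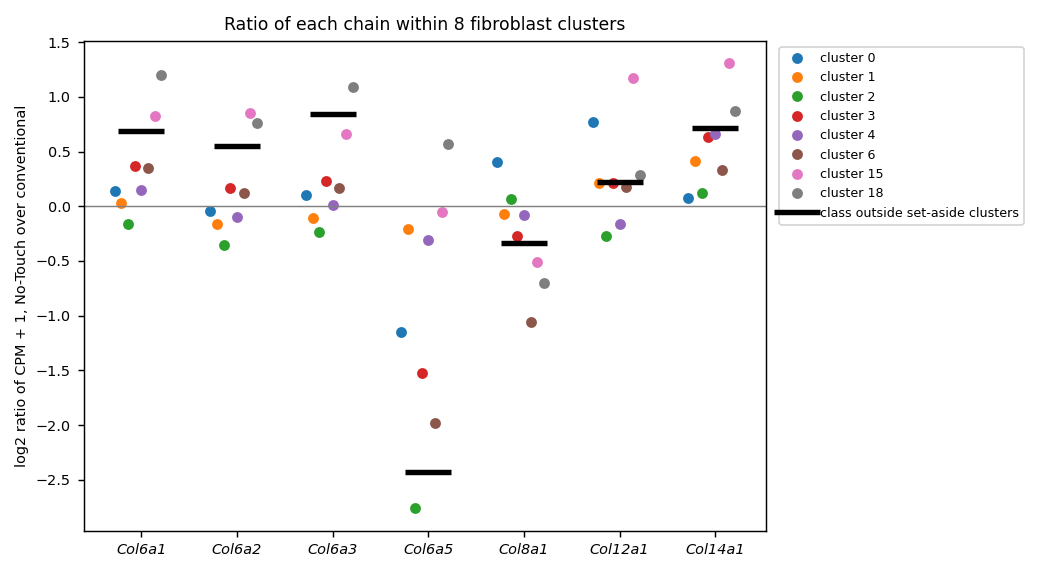
Log2 ratio of CPM + 1, No-Touch over conventional, of each chain within the 8 fibroblast clusters that have at least 50 cells in both libraries (points) and in the fibroblast-like class outside the set-aside clusters (bars). For Col6a1, Col6a2 and Col6a3 the class bar lies above clusters 0, 1, 2, 3, 4 and 6, while cluster 18 lies above the bar, and all 8 points of Col14a1 are above 0.

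Outside fibroblasts, the members differed by population. In pericyte-like cells Col6a3 stood at 489 and 758 CPM, 1.55 times higher in the No-Touch library (1.47 to 1.63), and Col14a1 at 46.2 and 82.7 CPM, 1.79 times higher (1.53 to 2.10). They were the 2 higher of 6 members that reached 50 CPM, where 6.77% of genes were higher, and no member was lower, where 4.38% of genes were. With the trimmed mean scaling of edgeR all log2 ratios of this population shift by 0.11, Col6a3 is no longer counted, and 154 genes are higher and 240 lower in place of 238 and 154. The pericyte Col14a1 levels were at or below those of neutrophil-like cells in CPM, and the part of free RNA in them was not tested. The fibroblast panel in pericyte-like cells was at 994 and 980 CPM, with no marker at 0.

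In blood endothelial-like cells Col8a1 stood at 51.0 CPM in the conventional library and 309 CPM in the No-Touch library, 6.06 times higher (5.55 to 6.63). Col6a3, at 25.8 and 53.4 CPM, was 2.07 times higher, and the fibroblast panel in these cells was at 945 and 1320 CPM, with no marker at 0. These were 2 of 4 members, where 8.03% of genes were higher, and none was lower, where 7.56% of genes were. With the scaling of edgeR 207 genes are higher and 393 lower in place of 285 and 268. Most of the Col8a1 difference lay in cluster 23, led by Cytl1, Myct1 and Emcn. In the No-Touch library its 58 cells, 15.1% of the class, held 89.6% of the Col8a1 UMIs of the class and stood at 1484 CPM. In the conventional library 14 cells, 1.65% of the class, held 306 UMIs, 49.1%. In the gated cells of cluster 7, the larger endothelial cluster, Col8a1 stood at 26.8 and 39.6 CPM, a log2 ratio of 0.55, below the 1.5 times used here. Over all cells of cluster 7, gated or not, it stood at 45.5 and 81.0 CPM, 1.78 times higher (1.60 to 1.98).

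Lymphatic endothelial-like cells had 2 of 4 members higher, Col6a1 at 57.5 and 98.3 CPM and Col6a3 at 32.0 and 55.4 CPM, where 7.12% of genes were, and none lower, where 7.28% were. Both genes lay at or below the level of neutrophil-like cells in each library. The fibroblast panel was at 1370 and 1225 CPM there, and its part in the result was not tested.

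In cluster 12, whose leading genes include Itga8, Lmod1, Npnt, Cnn1 and Myh11, Col8a1 stood at 598 CPM in 251 conventional cells and at 182 CPM in 366 No-Touch cells, 3.29-fold lower (3.11 to 3.49). Col12a1 stood at 169 and 75.0 CPM, 2.26-fold lower (2.05 to 2.50). No member of the 6 measured was higher, where 10.7% of genes were, and 2 were lower, where 8.27% were. Col6a1 (452 and 575 CPM), Col6a2 (382 and 436 CPM), Col6a3 (391 and 366 CPM) and Col14a1 (324 and 414 CPM) differed by less. With the scaling of edgeR 259 genes are higher and 348 lower in place of 355 and 274. The fibroblast panel was as high as the smooth muscle panel in this cluster, 7865 and 8120 CPM against 8369 and 11032 CPM. In the gated smooth muscle-like cells alone, 89 and 205 cells, Col8a1 stood at 690 and 123 CPM and Col12a1 at 155 and 24.6 CPM (log2 ratio -2.61), and the log2 ratios were -0.68 for Col6a3 and -0.51 for Col14a1.

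Cluster 21, led by Pcp4l1 and Myh11, held less Col8a1, at 45.2 and 48.5 CPM in 79 and 102 cells, under the 50 CPM limit in both libraries. Its log2 ratio there was 0.10, but -0.65 with high doublet scores left out and -0.43 in gated cells alone. Col6a1 stood at 201 and 334 CPM, 1.66 times higher, and Col14a1 at 149 and 303 CPM, 2.03 times higher. These were 2 of 4 members, where 10.6% of genes were higher, and none was lower, where 8.97% were. The fibroblast panel moved with them, at 2209 and 3829 CPM, and its part in the result was not tested. In gated cells alone neither gene was higher, and the log2 ratio of Col14a1 was -0.45.

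**Figure D4:**
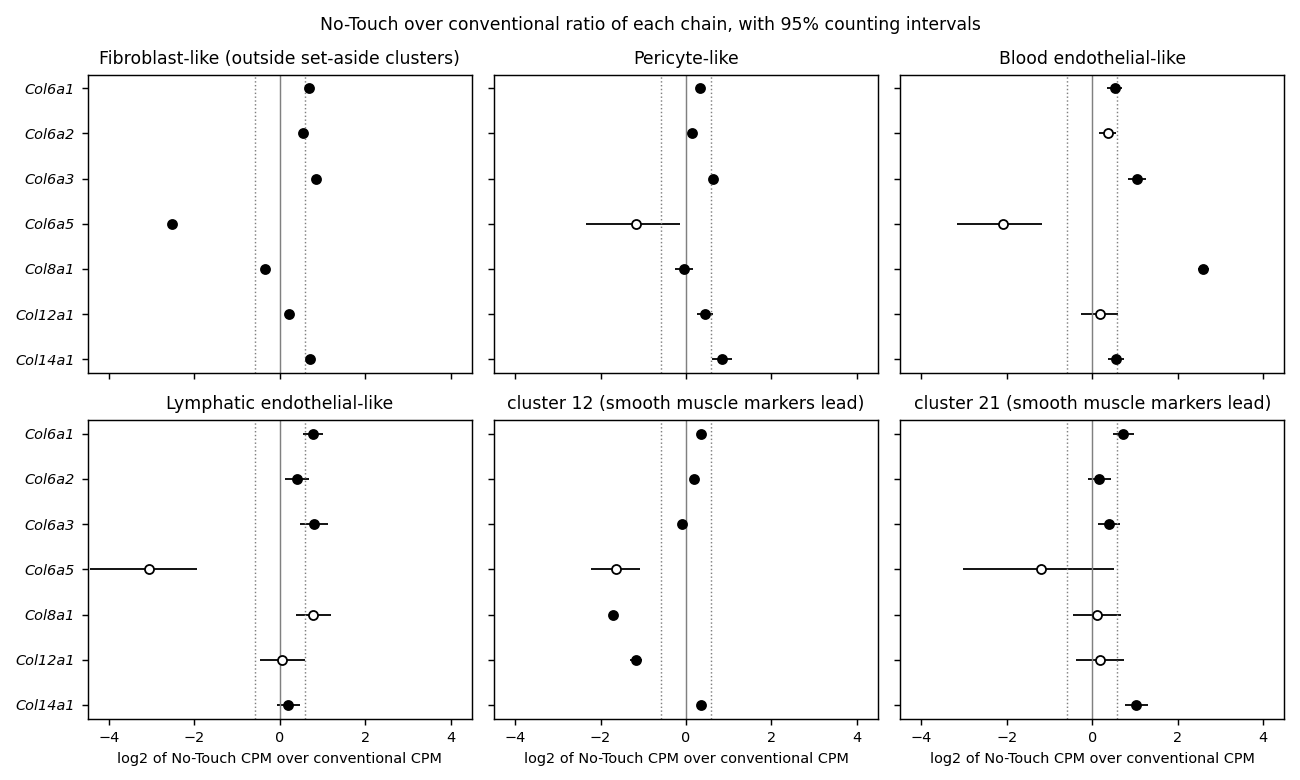
Log2 of the No-Touch over the conventional CPM of each chain in 6 populations, with 95% counting intervals; filled points reached 50 CPM in either library, and dotted lines mark 1.5 times. Col8a1 is far to the right in blood endothelial-like cells (6.06 times higher) and to the left in cluster 12 (3.29-fold lower), and Col6a5 in fibroblast-like cells is 5.77-fold lower.

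The balance of the collagen VI chains was read from ratios of UMI sums, which do not depend on the library total. Capture differs between genes, so only the same ratio is compared across cells. Col6a1 to Col6a2 was 1.18 in conventional and 1.31 in No-Touch fibroblast-like cells, 1.17 and 1.35 in pericyte-like cells, and 1.09 and 1.27 in smooth muscle-like cells. It was higher in the No-Touch library in 14 of 16 clusters with 100 UMIs of each chain in both libraries, the exceptions being clusters 13 and 15. Cluster 10, which holds the neutrophil-like cells, was among the 14, at 1.13 and 1.28. Schwann-like cells of the No-Touch library had a ratio of 2.50. Col6a3 to Col6a1 was 0.558 and 0.616 in fibroblast-like cells and 0.746 and 0.916 in pericyte-like cells. It was lower in the No-Touch library in 11 of 16 clusters. All 8 fibroblast clusters compared were among these, so the fibroblast class ratio and its cluster ratios went opposite ways. Pericyte cluster 5 was higher (0.715 and 0.824), as was its class. Smooth muscle-like cells were lower (0.820 and 0.719), as were clusters 12 and 21. Col6a5 to Col6a3 was 0.257 and 0.029 in fibroblast-like cells and reached 2.09 in cluster 20 of the conventional library. Cluster 20 was among the clusters set aside from the fibroblast ratio.

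**Figure D5:**
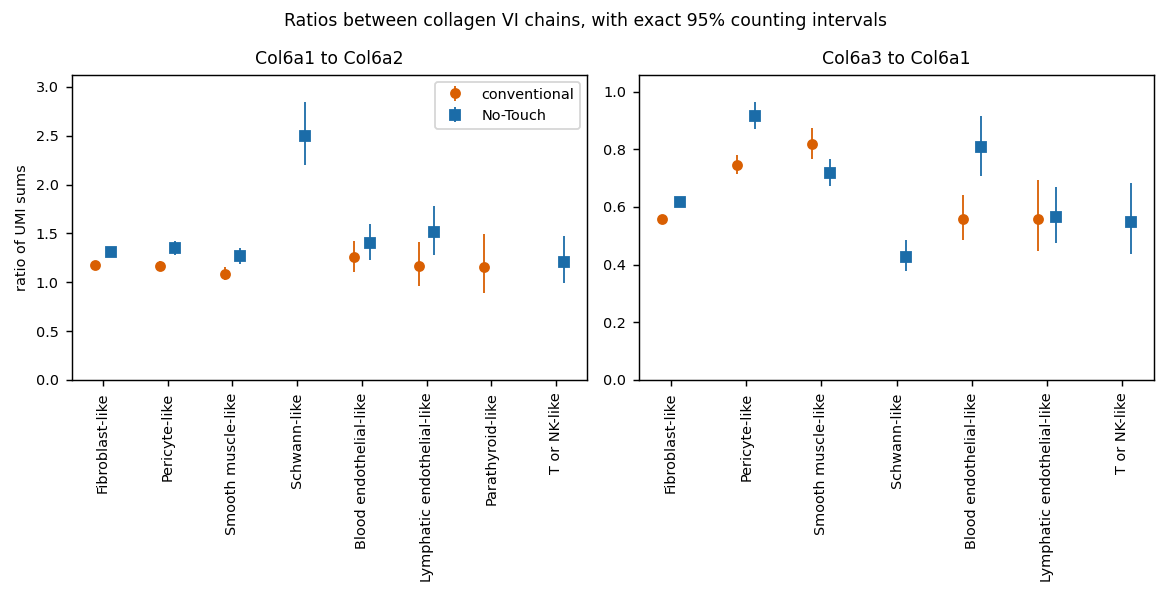
Ratios of UMI sums of collagen VI chains by class and library, with exact 95% counting intervals, for classes with at least 100 UMIs of both chains. Col6a1 to Col6a2 is higher in the No-Touch library in fibroblast-like (1.18 and 1.31), pericyte-like (1.17 and 1.35) and smooth muscle-like cells (1.09 and 1.27), and Col6a3 to Col6a1 is lower in smooth muscle-like cells of the No-Touch library (0.820 and 0.719).

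Other genes of collagen assembly were counted with a lower limit of 10 CPM. In fibroblast-like cells 8.7% of 8429 genes were higher and 5.72% lower. Of the receptors for these collagens 2 of 10 measured were higher and 1 lower. The 2 with the largest ratios were Antxr2 (42.0 and 114 CPM) and Antxr1 (149 and 263 CPM), anthrax toxin receptors known to bind collagen VI. Of 8 fibrillar collagens 4 were higher and 1 lower, among them Col5a3 (253 and 462 CPM) and Col3a1 (9248 and 16737 CPM). Of 11 processing and crosslinking genes 3 were higher and 1 lower, with the crosslinking oxidase Loxl2 at 192 and 409 CPM. Fn1, the gene of fibronectin, stood at 2058 and 3659 CPM. Of 11 matrix partners 1 was higher and 3 lower, with Comp at 398 and 135 CPM and Fmod at 121 and 52.0 CPM. Of 19 folding and modification genes 1 was higher. The 2 measured relatives of collagens VI and VIII and the fibril-associated Col16a1 (97.0 and 102 CPM) were in neither direction.

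In cluster 12, where 12.2% of genes were higher and 7.23% lower at this limit, 3 of 12 receptors were lower and 1 higher. The collagen-binding integrin Itga11 stood at 63.7 and 14.3 CPM, and Itga1 at 167 and 69.7 CPM. Of 11 partners 4 were lower and 3 higher, with Comp at 1373 and 348 CPM and Fmod at 443 and 103 CPM. Col2a1, the fibrillar collagen of cartilage, stood at 67.6 and 468 CPM. In cluster 21, where 18.0% of genes were higher and 10.7% lower, 6 of 8 fibrillar collagens were higher, with Col1a1 at 572 and 2125 CPM. In pericyte-like cells 4 of 7 fibrillar collagens were higher, where 10.5% of genes were higher and 4.46% lower, with Col1a1 at 573 and 1128 CPM. In blood endothelial-like cells 5 of 10 processing genes were higher, where 11.2% of genes were higher and 6.08% lower, with Fn1 at 309 and 878 CPM, and Col5a2 stood at 72.5 and 287 CPM. In lymphatic endothelial-like cells 4 of 7 fibrillar collagens were higher and 1 lower, where 9.89% of genes were higher and 7.48% lower, with Col3a1 at 662 and 1204 CPM. That was 1.82 times higher, beside 1.81 times in fibroblast-like cells at 9248 and 16737 CPM. The part of free fibroblast RNA in the counts outside fibroblasts was not tested.

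The genes most like each member were sought among 6721 genes over 15 points, each a class in a library with at least 100 cells. The points share library and depth, so the correlations are a description. Col6a1 was most like Col6a3, Antxr1 and Col6a2 (Pearson r 0.97 each), and Col6a2 was most like Col6a3 (0.99). Col6a5 was most like Saa3, an acute phase protein (0.88), and had r = 0.27 with Col6a3. Col8a1 was most like Baiap2 (0.88) and Col12a1 most like Olfml2b (0.96). Col14a1 was most like Mfap5, a microfibril protein used as a fibroblast marker here (0.96), followed by Fgf7 and Gsn.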

How the data were processed

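The deposited UMI counts of 2 libraries were used, 1 per graft type; per the file headers they are counts per gene and cell from cellranger 6.0.0, while the submitters' processing notes name Cell Ranger 3.1.0 and mm10. The kit, given as v2 or V3, is not settled. No column is of another series. Barcodes under 500 genes or 1000 UMIs, or over 10% mitochondrial UMIs, were dropped. A cell joined a class when its mean scaled marker score was at least 0.3 and 0.15 above the next class; mixed cells (411 and 447) were left out as possible doublets, and 728 and 456 cells stayed ungated. The gate limits, the setting aside of clusters led by markers of another class, and cluster ratios in place of the planned smooth muscle-like ratio were set after the data were seen. Cells left out of the fibroblast ratio came from 5 clusters. Scrublet's automatic limit marked 2.30% and 0% of cells and was not used. The members and gene lists were chosen with earlier results of these data known. From each list, the genes named are the 2 of at least 50 CPM with the largest ratio in a population described, and the 3 genes most like a member were taken by correlation.

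Clusters came from 2087 variable genes without collagens, 30 principal components, 15 neighbours and Leiden resolution 1.0 (scanpy 1.11.5, leidenalg 0.10.2, Python 3.11.15). Levels are UMI sums of a class per 1000000, with Garwood (Poisson), Clopper-Pearson (shares) or conditional binomial (ratios) intervals from scipy 1.17.1. Ratios are on log2(CPM + 1) where log2 is named. No count model was fitted, since each group is 1 library; edgeR 4.0.16 and DESeq2 1.42.0 under R 4.3.3 gave size factors for alternative scalings. The alternatives were other scalings, thinning, a mean over cells, doublets kept, a mitochondrial limit of 5%, clusters in place of the gate, equal weight of clusters, pseudocount 10, other filters and, chosen after seeing the data, all clusters of the class, whole clusters weighed equally, looser and stricter gates, high doublet scores left out, and gated cells only. The ratio code was checked on simulated data. UMIs are molecules, but intervals do not cover differences between animals or preparations. Promoters and motifs came from RefSeq, positions from GENCODE vM21 on GRCm38.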

Additional observations from a re-analysis of the deposited data

Results flagged for a closer look

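Col8a1 moved in opposite directions in 2 populations of the same comparison: its No-Touch over conventional log2 ratio was 2.58 in blood endothelial-like cells and -1.71 in cluster 12. The difference between these ratios was not tested, since each graft type is 1 library. In blood endothelial-like cells the levels were 51.0 and 309 CPM, and in cluster 12 they were 598 and 182 CPM. Cluster 23 held 1.65% of the conventional and 15.1% of the No-Touch blood endothelial-like cells, and 49.1% and 89.6% of their Col8a1 UMIs. In cluster 12 the fibroblast panel stood at 7865 and 8120 CPM and the smooth muscle panel at 8369 and 11032 CPM. The part of these values in the result was not tested.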

How the results depend on the processing

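Member ratios of at least 1.5 times were followed under 16 alternative settings, here without the 50 CPM limit. Of 244 values, 238 kept their direction and 6 reversed. Direction here is the sign of the log2 ratio only. Other scalings shift all ratios of a population alike, by at most 0.11 with edgeR or DESeq2, and pseudocount 10 cannot change a sign. Values under these settings could thus not reverse, and 238 is no measure of stability. Col14a1 in cluster 21 kept its direction at 0.0065 with high doublet scores left out, against 1.02 in the main setting. Among those reversed, Col6a5 and Col8a1 in lymphatic endothelial-like cells were under 50 CPM in both libraries. In cluster 12 the count of 2 members lower was 3 in gated cells only, which added Col6a3, and 2 under the other settings run, and lower Col6a5 in fibroblast-like cells ranged from -2.78 to -1.03 (log2). Of the counts of members higher by 1.5 times, that of fibroblast-like cells went from 3 to 4 with all clusters of the class and to 0 with clusters weighed equally, by gated cells, where Col6a3 was -0.0027, or by whole clusters, and that of pericyte-like cells from 2 to 1 with edgeR scaling and with a mean over cells. In blood endothelial-like cells the count of 2 became 4 with a mean over cells, with doublets kept, with the stricter gate and with high doublet scores left out, 5 with clusters in place of the gate and 1 with clusters weighed equally. In lymphatic endothelial-like cells the count of 2 became 0 after thinning to 3000 UMIs, 4 with doublets kept and with clusters in place of the gate, and 1 with high doublet scores left out; there Col6a5 reversed to 0.032 with doublets kept and Col8a1 to -0.0028 with clusters in place of the gate. In cluster 21 the count of 2 became 0 after thinning, with a mean over cells, with high doublet scores left out and in gated cells only, and the count lower went from 0 to 1 in the latter 2 settings, where Col6a1 was -0.062 and -0.013. Col14a1 there was -0.45 in gated cells only. The cause of these shifts was not tested. Genes counted as higher in a population, 238 to 364, became 733 to 1575 at a limit of 10 CPM, 3639 to 4887 with no limit and 52 to 129 at 2 times, and those lower, 154 to 308, became 389 to 937, 2781 to 4702 and 53 to 114. No paired analysis was possible because each group is 1 library, and no library could be left out for the same reason. Levels under about 10 CPM rest on few UMIs. Endothelial Col6a1, Col6a2, Col6a3 and Col14a1 were not above neutrophil-like cells in CPM, and the parts of free RNA and depth in this were not tested.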
